A study of Mus musculus with 3 samples.

Results

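Transcripts of 39 genes for protein folding in the endoplasmic reticulum (ER), secretion and the unfolded protein response were followed across 3 myeloid populations of the mouse colon. The genes were taken by symbol, and all 39 were found among the 24346 symbols of the deposited tables. Their levels, given below as FPKM (fragments scaled to transcript length and to the mapped fragments of the library), were, as deposited, highest in the dendritic cell library for 33 genes, in the macrophage library for 5 and in the Gr-1+ CD11b+ library for 1. The cells were isolated from the colons of BALB/c mice that were healthy, with no treatment or genotype beyond the strain in the labels, and the age and number of mice were not given. They were CD64- DCs (dendritic cells lacking the high-affinity IgG receptor), CD64+ MΦ (macrophages bearing it), and cells with the granulocyte and monocyte epitope Gr-1 and the integrin CD11b, whose source name is Neutrophil_monocyte. Below they are called DCs, macrophages and Gr-1+ cells. There was 1 library per population, so no difference had a replicate check, no test was possible and no p-value is given.

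The ER is where secreted and membrane proteins enter, fold and acquire sugars and disulfide bonds. Nascent chains pass through the Sec61 channel, chaperones such as BiP (Hspa5) and the calnexin cycle fold them, and chains that fail are pulled back to the cytosol and degraded. Unfolded proteins activate the sensors IRE1 (Ern1), ATF6 and PERK (Eif2ak3), which act through XBP1, cleaved ATF6 and ATF4 to raise these same genes. The pathway is best known in cells that secrete much protein, plasma cells above all, and XBP1 is also needed by some dendritic cells, whereas mature neutrophils carry little ER.

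The choice of genes by pathway was not independent of the ER stress element, since the factors named above raise these same genes. The element, the site bound by ATF6 with the factor NF-Y, is therefore given as a description only. It was searched as CCAAT and CCACG separated by 9 bases, on both strands, in the 300 bases from 250 before to 50 after each RefSeq gene start (GRCm38.p6). Of the 39 genes, 31 had a window in that table, and 8 of these genes (25.8%) held the element, against 37 of the 27025 genes in the table. Counted by window, of which a gene can have several, 39 of 32851 held it (0.119%). The matches are shown because they fall in the main chaperones of the ER (Hspa5, Hsp90b1, Calr and Canx) and in 4 further genes (Dnajc3, Creld2, Pdia6 and Syvn1). Capitals mark the element, and in Calr, Creld2 and the second Hsp90b1 match it reads CGTGG to ATTGG, since it lies on the opposite strand. All are written in the direction of the gene.
Hspa5 (chr2:34772020-34772048, plus strand): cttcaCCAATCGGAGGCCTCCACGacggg
Hsp90b1 (chr10:86705633-86705661, minus strand): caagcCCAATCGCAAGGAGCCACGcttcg
Hsp90b1 (chr10:86705528-86705556, minus strand): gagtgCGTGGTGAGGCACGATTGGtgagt
Calr (chr8:84847070-84847098, minus strand): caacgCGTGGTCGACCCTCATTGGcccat
Canx (chr11:50325795-50325823, minus strand): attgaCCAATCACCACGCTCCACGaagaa
Dnajc3 (chr14:118937822-118937850, plus strand): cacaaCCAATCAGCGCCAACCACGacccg
Creld2 (chr15:88819515-88819543, plus strand): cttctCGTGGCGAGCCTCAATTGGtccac
Pdia6 (chr12:17266486-17266514, plus strand): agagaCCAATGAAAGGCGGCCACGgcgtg
Syvn1 (chr19:6046527-6046555, plus strand): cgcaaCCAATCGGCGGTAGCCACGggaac

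The related element ERSE-II, searched as ATTGG and CCACG separated by 1 base, was in 2 of the 31 genes and in 12 of all 27025, or 0.0365% of windows. It lay in Dnajb11, after the gene start, and in Herpud1, 52 to 42 bases before it.
Herpud1 (chr8:94386372-94386392, plus strand): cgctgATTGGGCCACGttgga
No gene held both elements, which share CCACG. The XBP1 and ATF6 site TGACGTGG or TGACGTGA was in 1 of the 31 genes, Hspa5, and in 329 of all 27025, or 1.12% of windows. The core of the ATF4 site (TGATGCAA, TGATGAAA or TGATGTAA) was also in 1, Herpud1, and in 914 of all 27025, or 2.995% of windows. These are matches of letters in a short window and do not show that a factor binds there. Of 114 further pathway genes with a window, Derl3, an ER membrane protein of degradation, was the only gene with the ER stress element. ERSE-II was also in 1 of the 114, Krtcap2, the XBP1 and ATF6 site in 9 and the ATF4 core in 12.

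The libraries differed in depth and in background. From steps of low FPKM values, the DC library was 3.59 times and the macrophage library 2.70 times as deep as that of Gr-1+ cells. The 95th percentile of 1445 olfactory and vomeronasal receptor genes, called the silent-gene level here, was 0.610, 3.23 and 9.67 FPKM in DCs, macrophages and Gr-1+ cells. All 39 genes exceeded it in DCs and macrophages and 33 did in Gr-1+ cells. The exceptions there were Hyou1, Syvn1, Spcs3, Ern1, Atf6 and Lman1, whose values in that library are not read as expression. Neutrophil markers marked the Gr-1+ library, with S100a8 at 98580 FPKM against 828 in DCs, and Apoe and C1qb marked the macrophage library, at 19321 and 4403 FPKM. The 11 monocyte markers summed to 1921 FPKM in DCs, 4187 in macrophages and 2634 in Gr-1+ cells. In Gr-1+ cells 9 of the 11 had a lower value than in macrophages and 2 a higher one. The DC library held Ccr7 at 1004 FPKM against 107 in macrophages, while Cd83 was higher in macrophages, at 1684 against 1173, and only 2 of 16 dendritic cell markers were higher in DCs than in macrophages by the rule given below. It also held transcripts of antibody-forming cells. The 12 plasma cell markers summed to 20535 FPKM in DCs, 1194 in macrophages and 425 in Gr-1+ cells, and the 17 B cell markers to 5976, 294 and 131. None of these 29 markers was at 0 in any library, and all exceeded the silent-gene level in DCs. In macrophages 11 of the 12 and 13 of the 17 exceeded it, but in Gr-1+ cells only 4 of the 12 and 4 of the 17. Epithelial markers were present in all 3, with sums of 1143, 747 and 2423 FPKM over 17 genes.

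**Figure D1:**
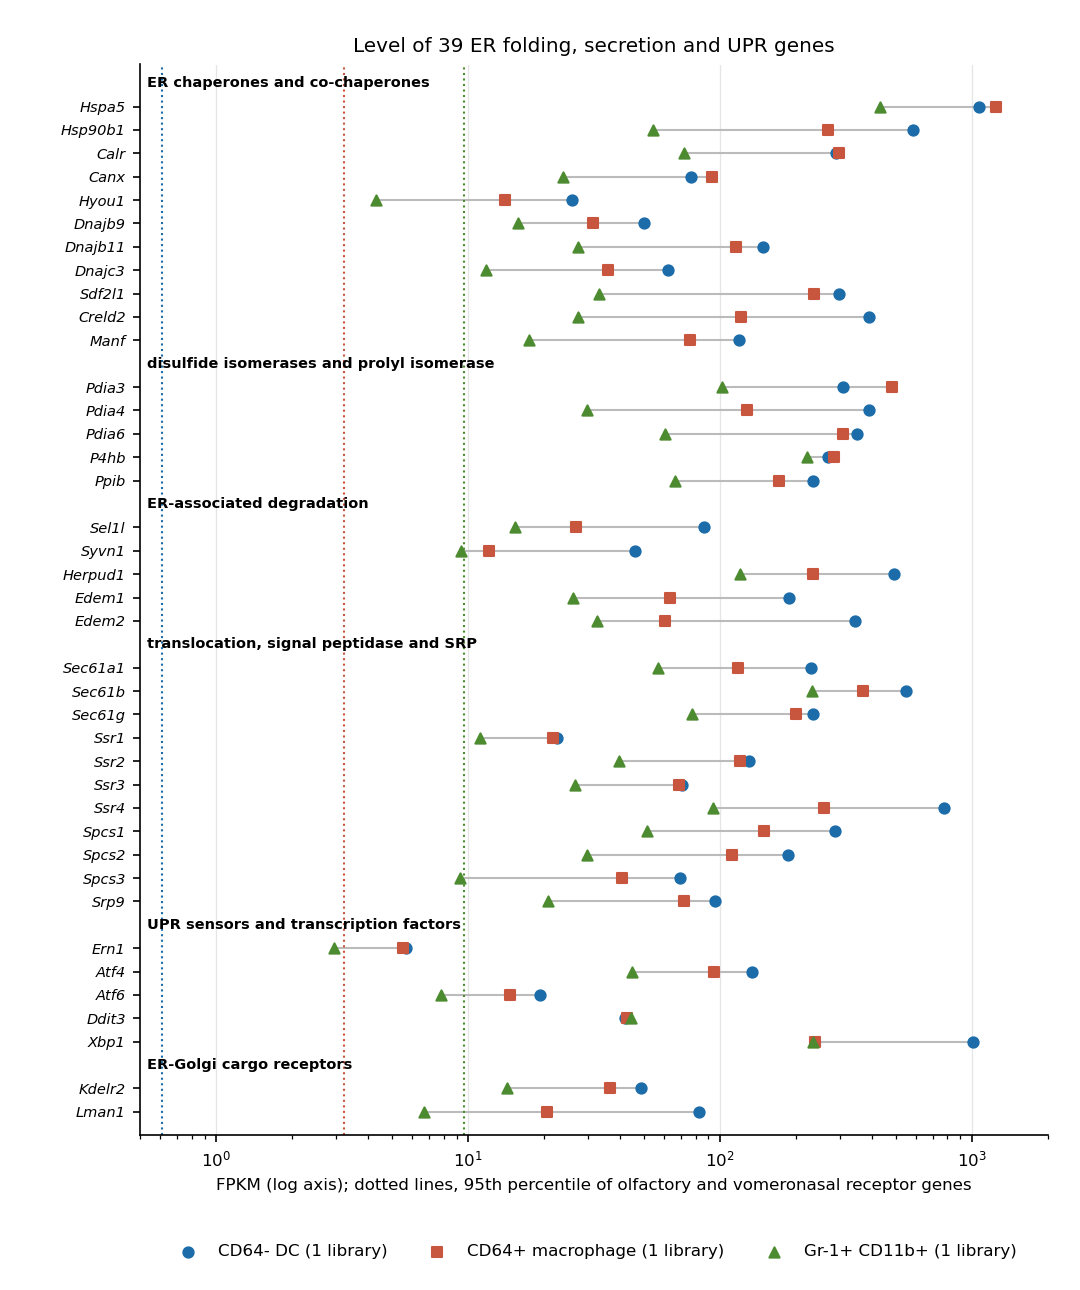
Level of each of the 39 genes in FPKM on a log axis, 1 library per population, grouped by role. Circles are CD64- DCs, squares CD64+ macrophages and triangles Gr-1+ cells, and dotted lines give the silent-gene level of each library. Triangles lie leftmost for 38 genes, while the 3 points of Ddit3 coincide between 41.9 and 44.4 FPKM.

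As a group, the genes took 1.47% of all FPKM in DCs, 0.719% in macrophages and 0.278% in Gr-1+ cells. The 10 highest genes of each library took 15.0%, 22.2% and 33.5% in the same order, which lowers the share left for all other genes. The median gene was at 186 FPKM in DCs, 112 in macrophages and 29.7 in Gr-1+ cells. The same order held in ranks, which do not depend on how the libraries are scaled. The median rank among all 24346 genes was 545 in DCs, 1034 in macrophages and 2066 in Gr-1+ cells, and 24, 18 and 7 of the 39 were among the 1000 highest genes. In Gr-1+ cells 35 genes ranked further down than in both other libraries, the exceptions being P4hb, Syvn1, Ddit3 and Xbp1. Syvn1 was under the silent-gene level there. The share of all genes with this rank pattern was not computed. By FPKM, 72.4% of genes at 10 FPKM or more in the higher library were lower in Gr-1+ cells than in DCs. Against macrophages 72.7% were lower. In such bulk samples fewer cells of a type and less RNA per cell cannot be told apart.

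Differences between libraries were taken on the log2(FPKM + 1) scale, which understates those of low genes. A gene was called higher or lower where this difference reached 2 and the higher library had 10 FPKM or more. DCs exceeded macrophages by this size rule for 2 of the 39 genes, Edem2 and Xbp1, and 0 were lower. Of the 17329 genes reaching 1 FPKM in any library, 1.53% were higher and 2.31% lower, and of the 6614 genes at 10 FPKM or more in the higher library, 4.02% were higher. Gr-1+ cells were below DCs for 21 of the 39 genes and above for 0, and Hyou1, Syvn1, Spcs3 and Lman1 of these 21 were under the silent-gene level in Gr-1+ cells. Among all genes 6.28% were lower and 3.65% higher, and 16.1% were lower among the 6740 genes at 10 FPKM or more. Against macrophages, Gr-1+ cells were lower for 10 of the 39 and higher for 0. The background was 3.41% lower and 1.41% higher among all genes, and 9.72% lower among the 6083 genes at 10 FPKM or more.

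The median difference of the 39 genes was 0.57 between DCs and macrophages, where all expressed genes had -0.05 and the genes at 10 FPKM or more 0.17. It was -2.11 between Gr-1+ cells and DCs, against 0.01 and -0.94, and -1.45 between Gr-1+ cells and macrophages, against 0.10 and -0.81. Well expressed genes as a whole were thus also lower in the Gr-1+ library, and 16 housekeeping genes had medians of -0.96 against DCs and -0.73 against macrophages. The comparisons share libraries and are not independent of each other.

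How the libraries are scaled moved these values. The order of DCs and macrophages was turned for Hspa5, Calr, Canx and P4hb by equal FPKM sums, to 0.17, 0.35, 0.11 and 0.31, so that of the 5 genes highest in macrophages only Pdia3 kept that place. With equal sums Ddit3 also turned, from -0.02 to 0.36, and with equal 75th percentiles Ssr1, Ssr2, Ssr3 and Ern1 became lower in DCs than in macrophages. With each library brought to the same 75th percentile of expressed genes, the median of all genes shifted to 0.62 between Gr-1+ cells and DCs and to 0.55 between Gr-1+ cells and macrophages. The medians of the 39 genes were then -1.34 and -0.86, and 9 and 1 of them passed the size rule. The 9 were Hsp90b1, Sdf2l1, Creld2, Pdia4, Edem1, Edem2, Ssr4, Spcs3 and Lman1, and the 1 was Sdf2l1. With equal FPKM sums the median between DCs and macrophages was 0.96 and 6 genes passed, Creld2, Sel1l, Syvn1 and Lman1 besides Edem2 and Xbp1. With Gr-1+ values raised to the silent-gene level where they were under it, Hyou1 no longer passed against DCs (-1.34), nor Spcs3 against macrophages (-1.98). The counts under these scalings are given without the share of all genes that passed.

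**Figure D2:**
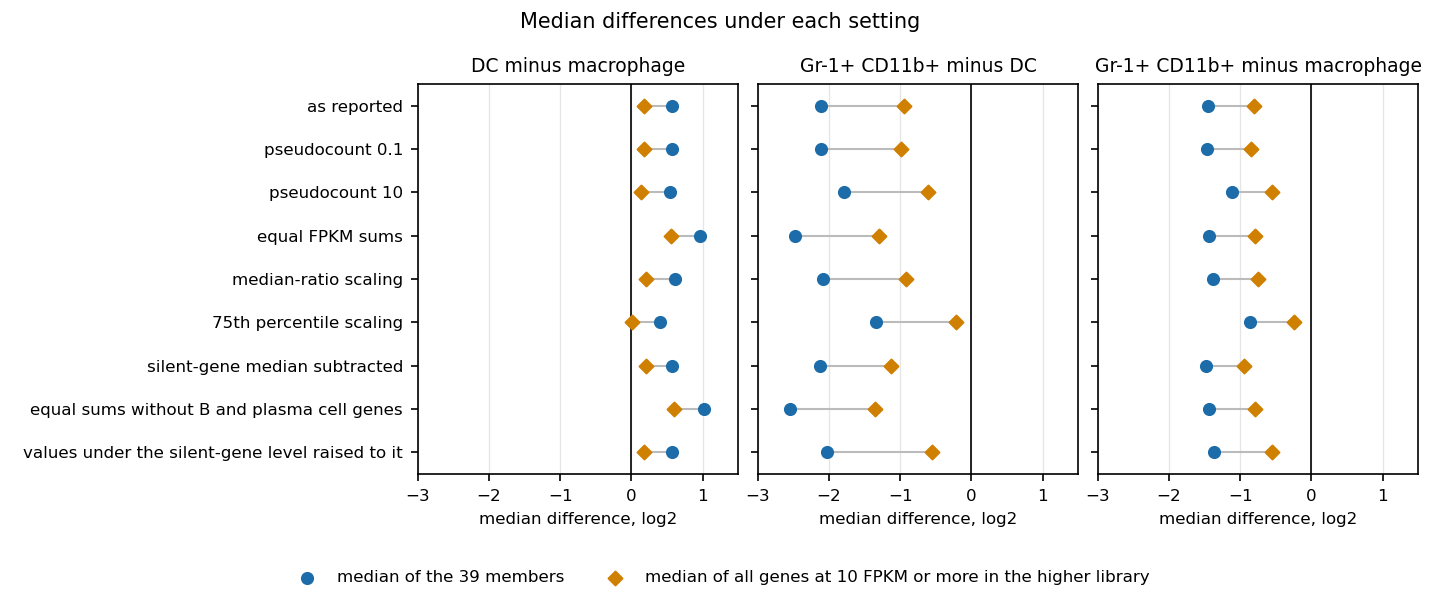
Median difference of log2 values for the 39 genes (blue circles) and for all genes at 10 FPKM or more in the higher library (orange diamonds) under the reported setting and 8 alternatives. The circle lies to the right of the diamond between DCs and macrophages and to its left in both Gr-1+ panels under each setting shown, with equal 75th percentiles giving 0.40, -1.34 and -0.86 for the 39 genes.

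**Figure D3:**
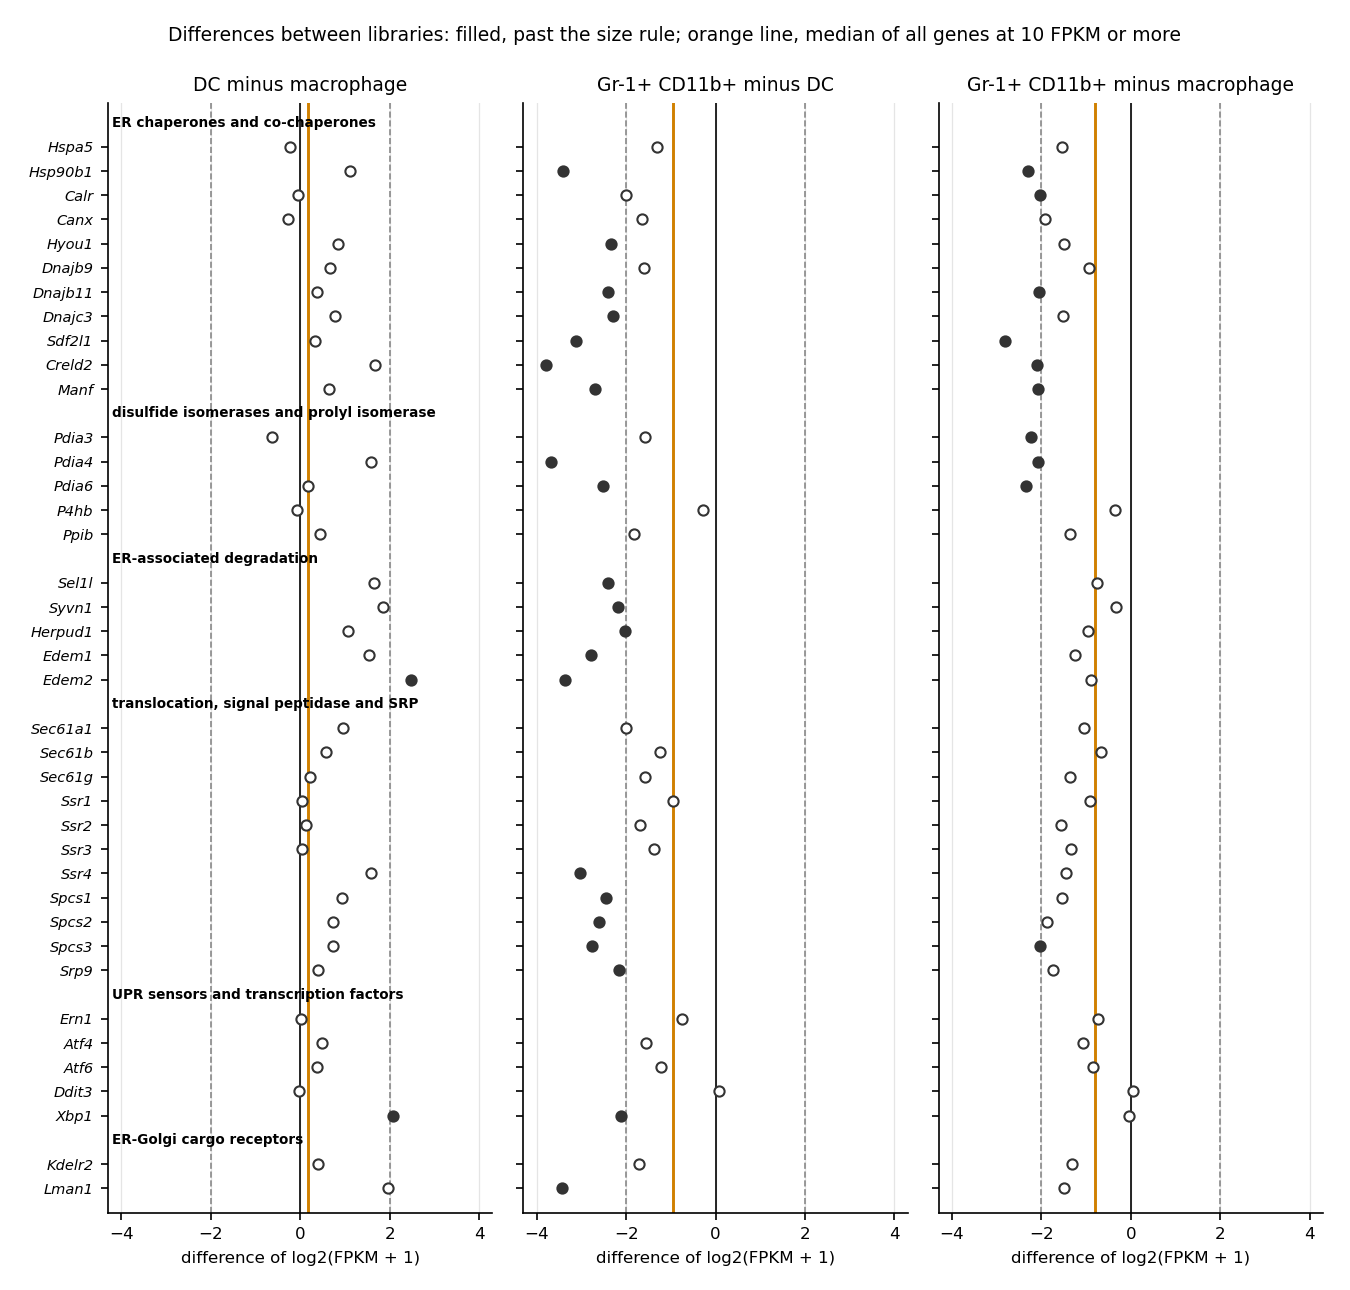
Difference of log2(FPKM + 1) for each of the 39 genes in the 3 comparisons of single libraries. Filled points pass the size rule, dashed lines mark differences of 2 and -2, and the orange line is the median of all genes at 10 FPKM or more in the higher library. Filled points number 2, 21 and 10, and all of those in the Gr-1+ panels lie to the left.

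The lumenal chaperones were among the most abundant of these transcripts. Hspa5, which encodes BiP, the Hsp70 chaperone that also holds the stress sensors inactive, was at 1067 FPKM in DCs, 1247 in macrophages and 432 in Gr-1+ cells. It was the highest of the 39 in every library and ranked 73, 83 and 231 among all genes. Its difference between DCs and macrophages was -0.22 (0.17 with equal FPKM sums) and that between Gr-1+ cells and macrophages -1.53, neither past the size rule. The gene lies on the plus strand of chromosome 2, 34771970 to 34777547 (GENCODE M21, GRCm38) and is protein-coding.

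Hsp90b1, the gene of the Hsp90 paralog GRP94 that folds Toll-like receptors and integrins, was spread more widely, at 586, 269 and 54.0 FPKM in DCs, macrophages and Gr-1+ cells. It was lower in Gr-1+ cells than in DCs by 3.42 and than in macrophages by 2.29 on the log2 scale, past the size rule in both. Hsp90b1 was thus further apart between libraries than Hspa5, although both promoters hold the ER stress element.

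The lectin chaperones of the calnexin cycle were close in DCs and macrophages. Calr (calreticulin, in the lumen) was at 289.7 and 298 FPKM, within counting error, which here means that 95% Poisson intervals of the estimated fragments overlap, and at 71.8 in Gr-1+ cells. Canx, the membrane-bound calnexin, was at 76.5 and 93.0 against 23.9. The difference of Calr between Gr-1+ cells and macrophages was -2.04 and past the size rule, and that from DCs, -1.997, was just short of it.

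The cochaperones and regulators of BiP were lowest in Gr-1+ cells without exception. Sdf2l1, which keeps BiP clients soluble, was at 297 FPKM in DCs and 237 in macrophages but 33.1 in Gr-1+ cells. Its difference of -2.81 from macrophages was the largest of the 39 in that comparison. Creld2, an ER stress-inducible protein that assists folding, was at 390.3 FPKM in DCs, 121 in macrophages and 27.4 in Gr-1+ cells. Its difference of -3.78 between Gr-1+ cells and DCs was the largest of the 39.

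Of the J-domain proteins that stimulate BiP, Dnajb11 was at 149, 115 and 27.3 FPKM in DCs, macrophages and Gr-1+ cells. Dnajc3, also an inhibitor of PERK, was at 61.9, 35.8 and 11.8, and Dnajb9, which represses IRE1, at 50.1, 31.2 and 15.8. Dnajb9 was the only one of the 3 to pass the size rule in no comparison. Manf, a secreted stress-induced factor that binds BiP, was at 119, 76.3 and 17.4 FPKM. Hyou1, the large Hsp70 that exchanges nucleotide on BiP, was at 25.9 and 14.0 FPKM in DCs and macrophages, and its 4.297 in Gr-1+ cells was below the silent-gene level. Of the 11 chaperones and cochaperones, 7 were lower in Gr-1+ cells than in DCs and 6 lower than in macrophages by the size rule.

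Protein disulfide isomerases did not follow a single pattern. Pdia3 (ERp57), the partner of calnexin that also serves the MHC class I loading complex, was higher in macrophages at 481 FPKM than in DCs at 308, with 102 in Gr-1+ cells. Pdia4 was the reverse, at 389 FPKM in DCs and 129 in macrophages, with 29.6 in Gr-1+ cells. Pdia6, which binds IRE1, was at 349, 309 and 60.4 FPKM in DCs, macrophages and Gr-1+ cells.

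P4hb, the classical isomerase PDI and a subunit of prolyl 4-hydroxylase, stood apart from these. It was at 269 FPKM in DCs, 284 in macrophages and 221 in Gr-1+ cells. Its difference of -0.28 between Gr-1+ cells and DCs, 0.48 with equal 75th percentiles, lay 1.83 above the median of the 39, and its rank was 391, 470 and 452. In the Gr-1+ library P4hb exceeded Pdia3, while in both other libraries it was below it. The prolyl isomerase gene Ppib (cyclophilin B) was at 235, 172 and 66.1 FPKM. Ppib shares 825 exonic bases with Snx22 on the other strand, and the reads of such a pair cannot be told apart without strand.

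Among the 39, genes of ER-associated degradation had the highest median difference between DCs and macrophages of the 6 roles, 1.65. These were 5 genes, and the 21 other degradation genes described below had a median of 0.44. All 5 differed by 1 or more, as did 11 of the 39 as a whole, although Herpud1 was at 0.90 with equal 75th percentiles. Of all genes at 10 FPKM or more in the higher library, 86.8% lay below Herpud1, the lowest of the 11 at 1.07. Edem2, which trims mannose from misfolded glycoproteins to mark them for disposal, was at 343 FPKM in DCs, 60.6 in macrophages and 32.4 in Gr-1+ cells. Its difference of 2.48 between DCs and macrophages was past the size rule in all 8 alternatives tried for single genes. Edem2 lies on the minus strand of chromosome 2, 155701677 to 155729475. Its relative Edem1 was at 187, 63.6 and 26.2 FPKM.

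The ubiquitin ligase Syvn1 (HRD1) and its partner Sel1l form the retrotranslocation complex. Sel1l was at 86.1 FPKM in DCs, 26.8 in macrophages and 15.4 in Gr-1+ cells. Syvn1 was at 46.0, 12.1 and 9.41, the last below the silent-gene level. Herpud1, which recruits that complex, was at 492, 234 and 119.6. Between Gr-1+ cells and macrophages the 5 genes differed by -1.25 to -0.33 and 0 passed the size rule, while all 5 passed it between Gr-1+ cells and DCs. Of the 12 plasma cell markers, 10 were also higher in DCs than in macrophages by the size rule, among them Mzb1, an ER chaperone partner of B lineage cells, at 995 and 48.0 FPKM. The other 2, Prdm1 and Slamf7, were at 21.8 and 49.2 FPKM in DCs and at 36.1 and 54.5 in macrophages. The part of plasma cell RNA in the DC values was not tested.

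The translocation machinery was higher in DCs than in macrophages for all 11 genes, by 0.04 to 1.58, though Ssr1, Ssr2 and Ssr3 turned to -0.11, -0.05 and -0.13 with equal 75th percentiles. Sec61a1, the pore subunit of the channel, was at 229.7 FPKM in DCs, 118 in macrophages and 56.9 in Gr-1+ cells. The small subunits Sec61b and Sec61g were at 548, 369 and 231 and at 234, 201 and 77.4. Sec61b was thus closer between libraries than the pore it belongs to, with -0.67 between Gr-1+ cells and macrophages against -1.04 for Sec61a1.

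The TRAP complex, which assists the Sec61 channel, was uneven across its subunits. Ssr1, Ssr2 and Ssr3 were within counting error of each other in DCs and macrophages, at 22.5 and 21.7, 130.4 and 120.1, and 70.8 and 69.1 FPKM. Ssr4 was at 773 FPKM in DCs and 258 in macrophages, a difference of 1.58. In Gr-1+ cells the 4 genes were at 11.1, 39.9, 26.6 and 93.8 FPKM, and only Ssr4 was lower than in DCs by the size rule.

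Signal peptidase cuts the leader peptide from the entering chain, and its accessory subunit genes Spcs1, Spcs2 and Spcs3 were lower in Gr-1+ cells than in DCs by the size rule. Spcs1 was at 286, 149.9 and 51.3 FPKM in DCs, macrophages and Gr-1+ cells. Spcs2 was at 186, 112 and 29.7, and Spcs3 at 69.1, 41.0 and 9.33, the last below the silent-gene level. Srp9, a subunit of the signal recognition particle that pauses translation, was at 96.0, 72.2 and 20.8. Srp9 overlaps a processed pseudogene on the other strand by 784 exonic bases, Sec61a1 an antisense gene by 549 and Spcs1 the gene Glt8d1 by 252, so these values are uncertain.

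The 5 sensors and transcription factors of the response ranged from 5.65 to 1011 FPKM in DCs. Ern1, the gene of IRE1, had the lowest value of the 39 in every library, at 5.65 FPKM in DCs, 5.54 in macrophages and 2.93 in Gr-1+ cells. The last value was under the silent-gene level and is not read as expression. It rests on about 50 fragments, with a 95% exact Poisson interval of 2.18 to 3.87 FPKM that covers counting error only. Atf6 was at 19.3, 14.7 and 7.77 FPKM, the last also under the silent-gene level. Neither sensor passed the size rule in any comparison, and DCs and macrophages were within counting error in Ern1.

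Xbp1, whose mRNA is spliced by IRE1 to give the active factor, was at 1011 FPKM in DCs, 239 in macrophages and 233 in Gr-1+ cells. DCs stood apart from both others, by 2.08 and 2.11, each past the size rule. With equal 75th percentiles DCs were 1.91 above macrophages and the difference between Gr-1+ cells and DCs was -1.34, both short of it. Macrophages and Gr-1+ cells agreed within counting error, and Xbp1 ranked 82, 554 and 424 in the 3 libraries. These FPKM values sum spliced and unspliced Xbp1 and do not give IRE1 activity. Xbp1 lies on the plus strand of chromosome 11, 5520659 to 5525893.

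Atf4, the factor translated when eIF2α is phosphorylated, was at 134 FPKM in DCs, 95.02 in macrophages and 44.8 in Gr-1+ cells. Ddit3, its target that encodes the death-promoting factor CHOP, was at 41.9, 42.6 and 44.4 FPKM, all within counting error of each other. Its differences of 0.08 and 0.06 were the only positive values of the 39 in the Gr-1+ comparisons, and lay 2.19 and 1.51 above the medians of the group. Over the alternatives the difference from DCs lay between -0.34 and 0.83. Ddit3 lies on the plus strand of chromosome 10, 127290774 to 127296288 and shares 68 exonic bases with Mars, which was at 52.1, 20.04 and 9.26 FPKM.

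Transport receptors between ER and Golgi were represented by 2 genes. Lman1 (ERGIC-53), a lectin that carries glycoproteins to the Golgi, was at 82.4 FPKM in DCs, 20.5 in macrophages and 6.68 in Gr-1+ cells. The last value was below the silent-gene level. The difference of Lman1 between DCs and macrophages, 1.955, was short of the size rule and passed it with a pseudocount of 0.1 or with equal FPKM sums. Kdelr2, which returns escaped chaperones to the ER, was at 48.7, 36.7 and 14.2 FPKM.

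Genes with and without the ER stress element were set side by side over the 31 with a promoter window. Between Gr-1+ cells and macrophages, the 8 with it had a median difference of -1.98 and the other 23 one of -1.25. Against DCs the medians were -2.24 and -2.03, and between DCs and macrophages 0.47 and 0.49. The 8 ranged from -3.78 (Creld2) to -1.30 (Hspa5) between Gr-1+ cells and DCs. These medians are a description of single libraries.

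Further pathway genes, 145 in number and not among the 39, were taken from lists by role, and 144 of them were in the tables. Of the 140 at 1 FPKM or more, 8 were higher and 2 lower in DCs than in macrophages by the size rule. For Gr-1+ cells against DCs 30 were lower and 4 higher, and between Gr-1+ cells and macrophages 5 were lower and 1 higher. Their medians were 0.43, -1.33 and -0.94 in the same order of comparisons. Among all expressed genes 1.53% were higher and 2.31% lower in DCs than in macrophages. In Gr-1+ cells 6.28% were lower and 3.65% higher than in DCs, and 3.41% lower and 1.41% higher than in macrophages. Of genes at 10 FPKM or more in the higher library, 4.02% were higher in DCs than in macrophages. In the Gr-1+ comparisons 16.1% and 9.72% of such genes were lower. These shares are also the background for the list counts below. Of the further pathway genes named below, Sil1, Fkbp11, Derl3, Srprb, Tram2, Sec24d, Sec31a and Eif2ak3 were under the silent-gene level in Gr-1+ cells, and Tram2 also in macrophages.

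Other folding enzymes included 2 genes that were higher in DCs than in macrophages by the size rule, Txndc5 and Fkbp11. Txndc5, a disulfide isomerase known from plasma cells, was at 681 FPKM in DCs, 84.5 in macrophages and 32.5 in Gr-1+ cells. Fkbp11, a prolyl isomerase of secretory cells, was at 74.5, 5.58 and 9.07, and the BiP exchange factor gene Sil1 at 47.2, 27.4 and 2.92. Erp29, an ER chaperone, was higher in macrophages at 199 FPKM than in DCs at 151, and Fkbp2 was at 355 in DCs and 213 in macrophages, without passing the rule. Of 23 such genes expressed, 8 were lower and 1 higher in Gr-1+ cells than in DCs, and 2 lower and 1 higher than in macrophages. The higher gene was Qsox1, a sulfhydryl oxidase named here after its values were seen, at 17.8, 11.1 and 106.6 FPKM in DCs, macrophages and Gr-1+ cells.

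Among 21 other degradation genes, Derl3 was at 162 FPKM in DCs, 9.22 in macrophages and 2.46 in Gr-1+ cells, a difference of 3.999 between DCs and macrophages. It was the only one of the 21 past the size rule there. Vcp, the ATPase that extracts substrates from the membrane, was at 185, 136 and 49.7 FPKM, and Selk at 329, 298 and 242. The degradation step thus held genes that were close between the libraries as well as genes far apart.

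In translocation, Sec11c, a catalytic subunit of signal peptidase, was at 883, 187 and 100.01 FPKM in DCs, macrophages and Gr-1+ cells, whereas its paralog Sec11a was at 115, 127 and 39.03. Between DCs and macrophages Sec11c differed by 2.23, past the size rule, and Sec11a by -0.14. The receptor subunit gene Srprb was at 62.0, 28.5 and 5.82, and Tram2 at 12.9, 1.24 and 1.68.

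The oligosaccharyltransferase, which attaches sugars to nascent chains, was higher in DCs than in macrophages for all 12 genes, by 0.27 to 1.81, with 0 past the size rule. Its median difference between Gr-1+ cells and DCs was -2.09, with 6 of 12 lower by the rule. Dad1 was at 677, 370.3 and 123 FPKM in DCs, macrophages and Gr-1+ cells, Krtcap2 at 539, 241 and 69.3, and the catalytic Stt3b at 95.2, 26.5 and 10.9.

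Transport vesicle genes of the COPII coat and its cargo receptors were closer. Of 26 genes, 0 passed the size rule between DCs and macrophages or between Gr-1+ cells and macrophages. Against DCs, 2 were lower in Gr-1+ cells, Sec24d at 3.68 against 29.6 FPKM and Sec31a at 9.13 against 45.1. Surf4, a cargo receptor, was at 162, 187 and 121 FPKM in DCs, macrophages and Gr-1+ cells.

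The third sensor, PERK, set DCs apart. Its gene Eif2ak3 was at 54.8 FPKM in DCs, 4.93 in macrophages and 2.58 in Gr-1+ cells, a difference of 3.23 between DCs and macrophages. Ern1 and Atf6 differed there by 0.02 and 0.37. Rtcb, the ligase that joins the cut Xbp1 mRNA, was at 80.7, 61.1 and 15.2 FPKM, and Tmbim6, an inhibitor of ER stress death, at 146, 207 and 211.

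Genes of the integrated stress response, the ATF4 arm shared with amino acid shortage, went in both directions. Besides targets, the list held the upstream kinase genes Eif2ak1, Eif2ak2 and Eif2ak4 and the gene of their substrate eIF2α, Eif2s1. None of these passed the size rule in any comparison. Of 26 expressed, 2 were higher and 2 lower in DCs than in macrophages, and 3 were higher and 3 lower in Gr-1+ cells than in DCs. Cebpb, a myeloid transcription factor gene, was at 3912 FPKM in Gr-1+ cells, 1719 in macrophages and 247 in DCs. Slc7a11, the cystine transporter gene, was at 42.4, 12.2 and 1.80 in the same order, the macrophage value above and the Gr-1+ value well above the silent-gene level of its library. Ppp1r15a (GADD34), which restores translation by dephosphorylating eIF2α, was at 530.4, 420.2 and 255 FPKM, without passing the rule. Phgdh, the first enzyme of serine synthesis, was the reverse, at 137 FPKM in DCs against 8.97 in macrophages and 10.2 in Gr-1+ cells.

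Chaperones outside the ER were also compared, mostly cytosolic ones, with the mitochondrial Hspa9, Hspd1 and Hspe1 on the same list. Of 20, 0 differed by the size rule between DCs and macrophages, 7 were lower in Gr-1+ cells than in DCs and 2 lower than in macrophages. Their medians in the Gr-1+ comparisons were -1.69 and -1.53, against -2.11 and -1.45 for the 39 ER genes. Hspa8, the constitutive Hsp70, was at 1256, 2360.1 and 764 FPKM in DCs, macrophages and Gr-1+ cells, and Hsp90ab1 at 601, 426 and 133. A low level in the Gr-1+ library was therefore also seen for folding genes outside the ER.

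**Figure D4:**
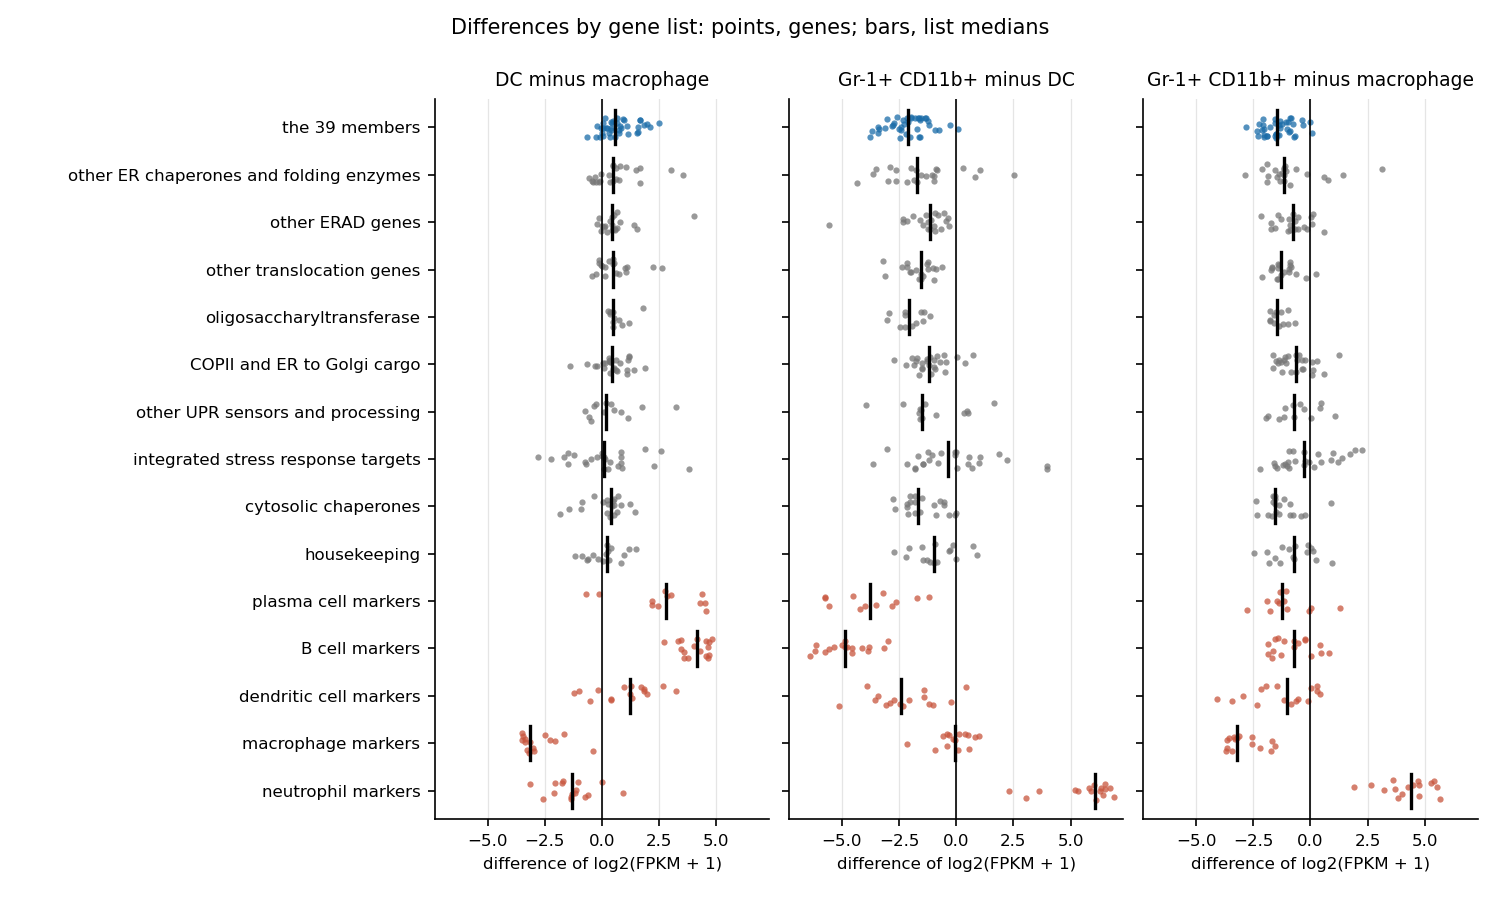
Difference of log2(FPKM + 1) of the expressed genes of each list in the 3 comparisons, with points for genes and bars for list medians. Blue points are the 39 ER genes, grey points other pathway and comparison lists, and red points cell type markers. The list labelled cytosolic chaperones also holds the mitochondrial Hspa9, Hspd1 and Hspe1. The medians of the 39 are 0.57, -2.11 and -1.45, while those of the B cell markers are 4.16, -4.87 and -0.72.

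Marker lists of other cell types moved with some of these differences, and their values are given beside them. Plasma cell markers had a median of 2.79 between DCs and macrophages, with 10 of 12 past the size rule, and B cell markers 4.16, with 17 of 17. Between Gr-1+ cells and macrophages, the comparison without the DC library, these medians were -1.23 and -0.72, with 1 and 0 genes lower by the rule. Most of these markers were under the silent-gene level in Gr-1+ cells, so both medians rest largely on background values. In that comparison the median of the 39 ER genes was -1.45 and 38 of them were negative. Of all genes at 10 FPKM or more in the higher library, 72.7% were negative there, with a median of -0.81. Dendritic cell markers had a median of 1.23 between DCs and macrophages, with 2 of 16 past the rule. Whether the DC values of the ER genes come from dendritic cells or from antibody-forming cells was not tested.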

How the data were processed

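RNA of 3 isolated colonic populations, 1 library each, had been extracted with a column kit, copied into full-length cDNA with SMART-Seq HT and made into libraries with a Nextera kit, per the labels' protocols. For each library the authors deposited FPKM values by gene symbol. The submitters' processing notes list mm10, Cufflinks 2.2.1, TopHat2 2.0.13, SAMtools 0.1.19 and Bowtie2 2.2.3. Their order, the annotation and the use of strand are not given in the sources used here.

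Values were used as deposited, with a pseudocount of 1 before log2. The gene members, lists, limits and named genes were chosen with earlier results of these data known. Genes that could be named were the 39 and, of each other list, those highest in FPKM (3 by mean, or 2 for markers) and up to 3 past the size rule with the largest difference. Depth came from steps of low FPKM times length (less 220 nt) of single-transcript genes, 85.8% to 86.2% of which lay within 0.2 of a whole number of fragments, where even spacing gives 40%. On 1 kb of transcript, 1 fragment was worth 0.110, 0.146 and 0.396 FPKM in DCs, macrophages and Gr-1+ cells. Fragments per gene and their 95% exact Poisson intervals were estimated from the longest GENCODE M21 transcript, and cover counting error only, since amplified fragments are not independent molecules. Python 3.11.15, NumPy 2.4.6, pandas 2.3.3, SciPy 1.17.1 and matplotlib 3.10.9 were used. Retention signals of the proteins were not analysed here.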

Additional observations from a re-analysis of the deposited data

How the results depend on the processing

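No count or median of the 39 genes turned direction under the alternatives tried. Between DCs and macrophages 2 genes passed the size rule, and 6 did with equal FPKM sums and 8 with equal sums without B and plasma cell genes. In that last setting, B and plasma cell genes were left out only of the sums used for scaling. Nothing that such cells add to the values of the 39 genes was removed. With equal 75th percentiles 1 passed, with a log2 limit of 1 there were 11, and with a limit of 3 there were 0. Between Gr-1+ cells and DCs the 21 became 9 with equal 75th percentiles, 35 with a limit of 1 and 7 with a limit of 3. Between Gr-1+ cells and macrophages the 10 became 4 with a pseudocount of 10, 1 with equal 75th percentiles, 27 with a limit of 1 and 0 with a limit of 3. A limit of 1 is also passed by many other genes at 10 FPKM or more in the higher library. Against DCs 40.9% of these lay below the -1.21 of Atf6 and 49.6% below the -0.95 of Ssr1. Against macrophages 41.4% lay below the -1.04 of Sec61a1. For the other settings the share of all genes is not given here. The median between DCs and macrophages, 0.57, was 0.96 with equal sums and 0.40 with equal 75th percentiles. It was 1.01 with equal sums taken without B and plasma cell genes. The median of -2.11 between Gr-1+ cells and DCs was -1.78 with a pseudocount of 10 and -1.34 with equal 75th percentiles. It was -2.48 with equal sums and -2.54 with equal sums taken without B and plasma cell genes. That of -1.45 between Gr-1+ cells and macrophages was -1.11 with a pseudocount of 10 and -0.86 with equal 75th percentiles. A lower pseudocount (0.1), median-ratio scaling, subtraction of the silent-gene median and other FPKM floors (1 and 30) kept each count within 1.5 times. With values under the silent-gene level raised to it, an alternative chosen after the data were seen, 2, 20 and 9 genes passed. Over 8 alternatives, 30, 36 and 35 of the 39 differences kept their sign in the 3 comparisons.

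With 1 library per population, the spread between mice or cell isolations is unknown, and leaving out a library was not run. No paired analysis was possible because each population has 1 library. The Gr-1+ library had the lowest depth, and 6 of the 39 genes were under its silent-gene level of 9.67 FPKM.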

Other observations

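Heat shock and chaperonin genes of the cytosol added detail to the folding genes outside the ER. Hspa1a, the inducible Hsp70, was at 32.9 FPKM in DCs, 119 in macrophages and 22.1 in Gr-1+ cells, and its difference of -2.38 between Gr-1+ cells and macrophages passed the size rule. Its difference between DCs and macrophages was -1.82 and short of the rule. Chaperonin subunits, which fold actin and tubulin, had another order, with Cct5 at 259, 178 and 59.8 FPKM and Cct3 at 159, 90.0 and 24.4 in DCs, macrophages and Gr-1+ cells. Hspa1a has a nearly identical neighbour, Hspa1b, so the split of reads between them is uncertain.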
